A study of Mus musculus with 4 samples.

Results

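Prrx1, Prrx2, Twist1, Twist2, Snai1, Snai2, Zeb1, Zeb2 and Zfhx4 encode transcription factors of mesenchyme and of the epithelial-to-mesenchymal transition (EMT), and their RNA levels were examined in fibroblasts with and without focal adhesion kinase (FAK). The 9 genes were taken as a named list, and every probe set that the platform's annotation pairs with one of them alone was used. This gave 23 probe sets of 34958 paired with 1 gene, and 9 genes of 18194. The list was selected on genotype differences in part: Zfhx4 was chosen by its large difference between FAK-/- and FAK+/+ arrays, and differences of other members were known when the list was drawn up. Genotype differences of these 9 genes are therefore given as a description, with no test.

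The cells were mouse embryonic fibroblasts at passage 5, brought to 50% confluence, held for 24 h without serum and then cultured for a further 24 h with or without endothelin-1 (ET-1), a peptide ligand of G protein-coupled receptors. The 4 groups were FAK-/- cells after ET-1, FAK+/+ cells after ET-1, untreated FAK-/- cells and untreated FAK+/+ cells, each hybridised to 1 Affymetrix mouse expression array. FAK is a kinase that relays signals from integrins at sites of attachment to matrix. The dose of ET-1, the number of embryos behind each genotype and whether they were pooled are not given in the sources used here. No group has a replicate array, so replicate spread is unknown, and a bulk array cannot tell fewer cells of a type from less RNA per cell.

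In an embryo these factors define and maintain mesenchyme. Prrx1 and Prrx2 are paired-related homeodomain proteins of limb and craniofacial mesenchyme, and Twist1 and Twist2 are basic helix-loop-helix (bHLH) proteins that bind E-box DNA as dimers with E proteins. Snail-family (Snai1, Snai2) and Zeb-family (Zeb1, Zeb2) zinc-finger proteins bind E-boxes and repress epithelial genes such as Cdh1, which encodes E-cadherin. Zfhx4 is a very large protein with zinc fingers and homeodomains. Fibroblasts in culture commonly express most of these genes.

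All values are RMA values on the log2 scale, so a difference of 1 is 2-fold. They can be compared between arrays for 1 probe set but not between probe sets. The median of all values, log2 8.90, was used as a level filter, and a value below it is called dim here. Each gene was represented by its brightest probe set, the one with the highest mean over the 4 arrays, and 12290 genes had a representative above the filter on at least 1 array. Of the 9 genes, 8 passed and Snai1 did not. Prrx2 and Zfhx4 passed through their FAK+/+ values only, so a low value in FAK-/- cells was part of how they entered.

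One array stands apart and some marker genes of other cells differ between genotypes. For Gapdh, the log2 gap between 3' and 5' control probe sets was 3.79 in ET-1-treated FAK+/+ cells and 0.85 to 0.90 on the other arrays. The Actb gap was 1.27 in FAK-/- and 1.81 in FAK+/+ cells after ET-1, and 1.30 in FAK-/- and 0.66 in FAK+/+ cells untreated, so it also differed between the untreated genotypes. The ET-1-treated FAK+/+ array enters the genotype difference after ET-1, the ET-1 difference in FAK+/+ cells and every limma value, but not the untreated genotype difference. The annotation pairs 0 probe sets with Ptk2, the gene of FAK, so the genotype labels were not checked against it. Of 11 fibroblast markers, 8 and 9 were above the filter in FAK-/- cells after ET-1 and untreated, against 9 on each FAK+/+ array. Their mean was lower in FAK-/- cells, at 11.03 against 12.73 in FAK+/+ cells after ET-1 and 11.38 against 12.63 untreated, with Thy1 at 6.85 in FAK-/- and 13.46 in FAK+/+ cells after ET-1. The fibroblast marker Dcn went the other way, with 14.60 in FAK-/- and 12.73 in FAK+/+ cells after ET-1, and 14.47 and 12.64 untreated. Col3a1 was nearly level, with 14.54 in FAK-/- and 14.69 in FAK+/+ cells after ET-1, and 14.76 and 14.58 untreated. The 6 mesothelial markers averaged 12.61 in FAK-/- and 9.77 in FAK+/+ cells after ET-1, and 12.95 in FAK-/- and 11.17 in FAK+/+ cells without it. Of these 6, 5 were above the filter on each FAK-/- array, against 3 in FAK+/+ cells after ET-1 and 6 in untreated FAK+/+ cells. Krt19 went the other way, with 7.99 in FAK-/- and 11.40 in FAK+/+ cells after ET-1, and 8.86 and 11.43 untreated. The 8 epithelial markers, which share Krt19 with the mesothelial list, averaged 10.10 in FAK-/- and 9.15 in FAK+/+ cells after ET-1, and 10.43 and 9.97 untreated, with the defining marker Cdh1 dim on all arrays. The part of these markers in the results was not tested.

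The homeobox gene Prrx1 was lower in FAK-/- cells by its bright probe sets. Probe set 1425528_at, which represents the gene, read 8.35 after ET-1 and 9.60 untreated in FAK-/- cells, against 13.41 after ET-1 and 13.11 untreated in FAK+/+ cells. The genotypes did not overlap, and FAK-/- cells were 33.4-fold lower after ET-1 and 11.5-fold lower untreated. The FAK-/- value after ET-1 is dim, which makes the first of these folds uncertain. The second brightest, 1439774_at, gave nearly the same picture, at 7.27 and 8.28 in FAK-/- cells after ET-1 and untreated, against 12.10 and 11.81 in FAK+/+ cells, with both FAK-/- values dim.

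The other Prrx1 probe sets gave smaller genotype differences. Probe set 1425526_a_at read 7.46 after ET-1 and 7.93 untreated in FAK-/- cells, against 9.61 and 10.68 in FAK+/+ cells, and 1432129_a_at read 8.76 and 8.98 against 10.18 and 10.49. The genotypes were again apart on both, by 4.44-fold and 2.69-fold after ET-1 and by 6.74-fold and 2.84-fold untreated. For 1425527_at the differences were -0.42 after ET-1 and -0.97 untreated, both under 2-fold. Probe set 1458004_at lay between 6.75 and 6.82 on every array, dim throughout, with genotype differences of -0.03 after ET-1 and 0.03 untreated. Over all 6 probe sets the mean difference was -2.32 after ET-1 and -2.04 untreated, so the size of the Prrx1 difference depended on the probe set read while 5 of 6 had FAK-/- below FAK+/+ on both pairs of arrays.

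Prrx2, the close relative of Prrx1, has 1 probe set. It read 7.21 after ET-1 and 7.74 untreated in FAK-/- cells, against 9.80 after ET-1 and 10.13 untreated in FAK+/+ cells. It was thus dim in FAK-/- cells and above the filter in FAK+/+ cells, with folds of 6.01 lower after ET-1 and 5.22 lower untreated that are uncertain because of the dim side.

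The Twist genes parted. Twist2, also known as Dermo1, read 8.92 after ET-1 and 9.73 untreated in FAK-/- cells, against 12.96 and 12.97 in FAK+/+ cells. That is 16.5-fold lower after ET-1 and 9.43-fold lower untreated, with all 4 values above the filter. Twist1 read 11.05 after ET-1 and 11.08 untreated in FAK-/- cells, against 10.98 and 11.24 in FAK+/+ cells. Its genotypes overlapped, and the differences were 0.07 after ET-1 and -0.16 untreated. Each gene has 1 probe set, so neither value could be set against another probe set of the gene.

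**Figure D1:**
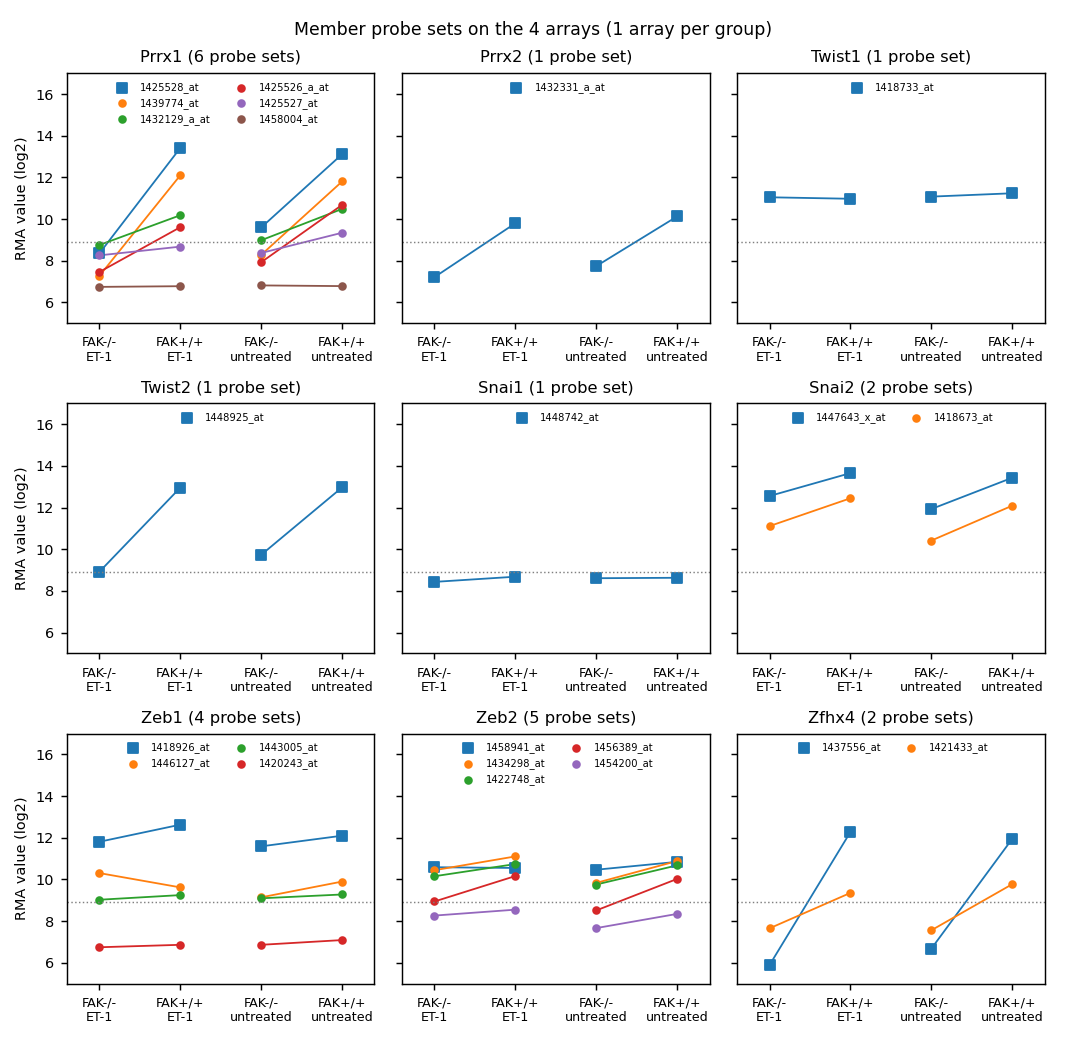
RMA values (log2, vertical axis) of the 23 probe sets on the 4 arrays, one panel per gene, with a line joining FAK-/- and FAK+/+ cells of the same treatment. Squares mark the probe set that represents the gene and the dotted line marks the level filter at 8.90. Prrx1, Prrx2, Twist2 and Zfhx4 climb steeply from FAK-/- to FAK+/+ cells, whereas Twist1 and Snai1 are nearly level.

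The proximal promoters of the Twist pair and of Snai1 are shown because they set the paralog that differed between genotypes beside the one whose genotypes overlapped, with Snai1 as the dim gene. The table of RefSeq promoter windows used here (GRCm38.p6) matched 6 of the 9 genes. The 250 bases before the start are printed 5′ to 3′ on the gene's strand, with capitals for E-boxes (CANNTG), CCAAT boxes (CCAAT or ATTGG) and TATAA or TTATA. Twist2 is at chr1:91801211-91801460 (+), Twist1 at chr12:33957421-33957670 (+) and Snai1 at chr2:167537945-167538194 (+).
Twist2: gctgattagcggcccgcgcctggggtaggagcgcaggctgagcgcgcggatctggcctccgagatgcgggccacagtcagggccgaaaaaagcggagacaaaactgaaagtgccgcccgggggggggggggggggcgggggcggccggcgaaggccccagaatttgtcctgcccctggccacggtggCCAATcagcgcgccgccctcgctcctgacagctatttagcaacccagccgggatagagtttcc
Twist1: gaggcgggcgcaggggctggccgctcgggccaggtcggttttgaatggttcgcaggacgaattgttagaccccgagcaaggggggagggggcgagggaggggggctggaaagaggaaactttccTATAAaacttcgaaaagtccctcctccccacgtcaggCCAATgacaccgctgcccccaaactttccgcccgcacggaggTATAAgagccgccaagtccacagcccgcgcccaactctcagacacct
Snai1: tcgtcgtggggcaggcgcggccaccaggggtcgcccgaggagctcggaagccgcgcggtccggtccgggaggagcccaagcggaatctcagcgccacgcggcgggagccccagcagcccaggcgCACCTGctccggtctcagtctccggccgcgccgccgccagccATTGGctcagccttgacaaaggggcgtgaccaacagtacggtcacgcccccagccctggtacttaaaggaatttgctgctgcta
Both Twist windows hold 1 CCAAT box, at -63 for Twist2 and at -89 for Twist1, and of the paralogs only Twist1 holds TATAA or TTATA, at 2 places. Neither holds an E-box. The Snai1 window holds 1 E-box at -126 whose letters, CACCTG, are those that Snail and Zeb proteins bind. Among 32817 RefSeq windows of this length, 66.2% hold CANNTG on either strand, 17.2% the form CAGGTG or CACCTG (which is included in CANNTG), 33.8% a CCAAT box and 22.8% TATAA or TTATA. These matches describe letters in the window only.

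Snai1, the founding Snail gene, was dim on every array. It read 8.44 after ET-1 and 8.61 untreated in FAK-/- cells, against 8.68 and 8.63 in FAK+/+ cells. The largest of the differences was -0.25, between genotypes after ET-1. Because Snai1 did not pass the level filter, no statement about it is made beyond its readings.

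Snai2 (Slug), the Snail gene that fibroblasts express strongly, was lower in FAK-/- cells by both probe sets. Probe set 1447643_x_at read 12.56 after ET-1 and 11.93 untreated in FAK-/- cells, against 13.66 and 13.44 in FAK+/+ cells, and 1418673_at read 11.11 and 10.42 against 12.45 and 12.09. The genotypes did not overlap on either probe set. The folds were 2.14 and 2.52 lower after ET-1 and 2.83 and 3.19 lower untreated, so the probe sets gave close values.

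The Zeb genes differed less. Zeb1 by its brightest probe set, 1418926_at, read 11.81 after ET-1 and 11.59 untreated in FAK-/- cells, against 12.63 and 12.10 in FAK+/+ cells, which is 1.77-fold and 1.42-fold lower. Probe set 1443005_at gave -0.22 after ET-1 and -0.18 untreated, and 1420243_at, dim on all arrays, gave -0.12 and -0.23. On 1446127_at the sign turned, with 10.31 in FAK-/- and 9.62 in FAK+/+ cells after ET-1, but 9.14 in FAK-/- and 9.90 in FAK+/+ cells untreated. The mean over the 4 Zeb1 probe sets was -0.12 after ET-1 and -0.42 untreated.

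Zeb2 depended on the probe set. Its representative, 1458941_at, read 10.59 after ET-1 and 10.47 untreated in FAK-/- cells, against 10.55 and 10.85 in FAK+/+ cells, so the genotypes overlapped. The other 4 probe sets were lower in FAK-/- cells in both states without overlap. Among them 1456389_at was 2.33-fold lower after ET-1 and 2.85-fold lower untreated, and 1434298_at, almost as bright as the representative, was 1.58-fold and 2.07-fold lower. The mean over 5 probe sets was -0.54 after ET-1 and -0.91 untreated, against 0.04 and -0.38 for the representative alone.

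Zfhx4 had the widest gap, which is why it was listed. Probe set 1437556_at read 5.90 after ET-1 and 6.68 untreated in FAK-/- cells, dim in both, against 12.29 and 11.96 in FAK+/+ cells. Probe set 1421433_at read 7.66 and 7.56 in FAK-/- cells, against 9.36 and 9.78 in FAK+/+ cells. Both probe sets separated the genotypes, with differences of -6.39 and -1.70 after ET-1 and of -5.27 and -2.21 untreated.

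**Figure D2:**
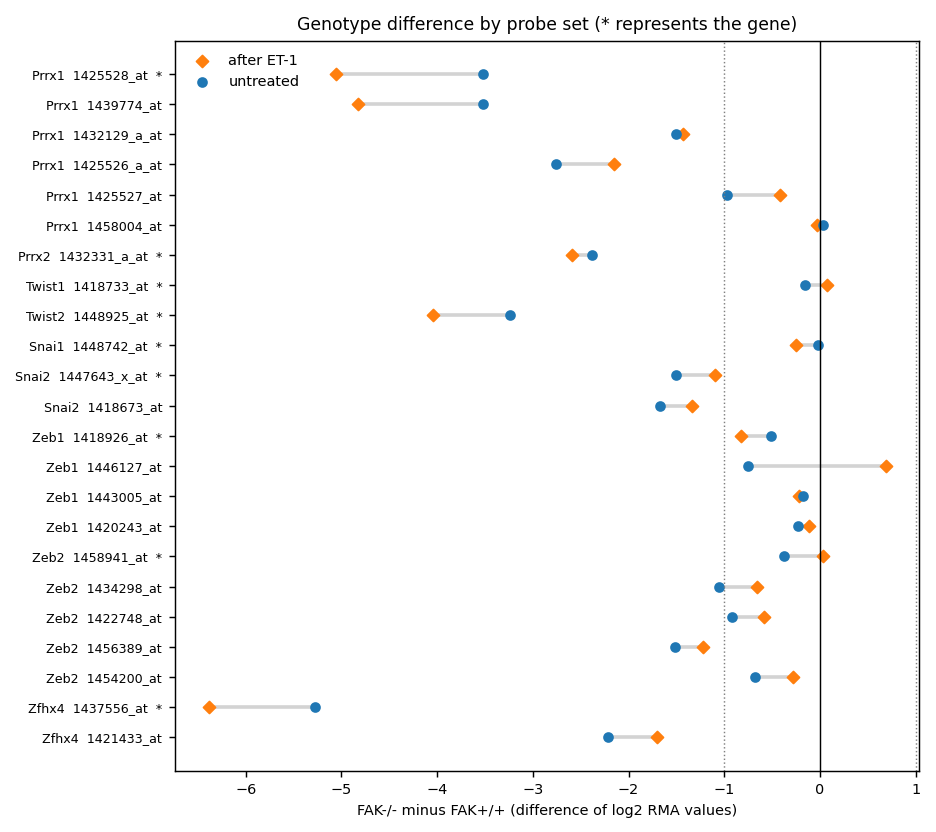
FAK-/- minus FAK+/+ difference of log2 values (horizontal axis) for each of the 23 probe sets, after ET-1 (diamonds) and untreated (circles), with dotted lines at 2-fold. Probe sets of Prrx1, Zeb2 and Zfhx4 spread widely within the gene, from -5.06 to -0.03 after ET-1 for Prrx1, while both Snai2 probe sets lie close together.

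Counted by representative, 5 of the 9 genes (Prrx1, Prrx2, Twist2, Snai2 and Zfhx4) were at least 2-fold lower in FAK-/- cells in both treatment states and 0 were at least 2-fold higher. Over the 12290 genes, 6.53% were at least 2-fold lower and 5.61% at least 2-fold higher after ET-1, and 4.59% and 4.78% untreated. The median of the 9 genes was -1.10 after ET-1 and -1.50 untreated, against -0.03 and 0.02 over all 12290 genes. Both FAK-/- arrays were below both FAK+/+ arrays on 18 of the 23 probe sets, against 26.3% of all probe sets paired with 1 gene. Since genotype differences entered the choice of genes, these counts describe the list and carry no test.

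ET-1 was not used to choose the genes. In FAK-/- cells some of the 9 genes were lower and others higher after ET-1, with 1 array per state and no test. Prrx1 was 2.37-fold lower after ET-1 than untreated, Twist2 1.76-fold, Zfhx4 1.73-fold and Prrx2 1.44-fold lower, whereas Snai2 was 1.54-fold higher by one probe set and 1.62-fold higher by the other. All 5 Zeb2 probe sets were higher after ET-1 in FAK-/- cells, by 0.12 to 0.61 on the log2 scale. Of the 9 genes, 1 was at least 2-fold lower (Prrx1) and 0 were at least 2-fold higher, against 0.277% and 0.236% of all genes. At 1.5-fold, 3 were lower and 1 was higher, against 0.936% and 1.39% of all genes.

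These readings were not the same on every probe set. For Prrx1 in FAK-/- cells, 1439774_at was also 2.01-fold lower after ET-1, but the remaining 4 probe sets differed by -0.07 to -0.47, and the mean of all 6 was -0.52. For Zfhx4 the second probe set gave 0.09 instead of -0.79. For Zeb1, 1446127_at was 2.24-fold higher, against 0.22 on the log2 scale by the representative and -0.07 and -0.12 by the others. For Prrx1 by 1425528_at, the low side of the difference in FAK-/- cells is dim. Both FAK-/- values are dim for Prrx1 by 1439774_at, for Zfhx4 by both probe sets and for Prrx2, so those differences lie wholly below the filter. No replicate array shows how far such values vary.

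In FAK+/+ cells 0 of the 9 genes reached 2-fold after ET-1 by representative, against 1.17% of all genes at least 2-fold lower and 0.781% at least 2-fold higher. By representative, Prrx1 was 0.30 higher after ET-1, Zfhx4 0.33, Zeb1 0.53 and Snai2 0.22 higher on the log2 scale, and Twist2 differed by -0.01. The second Zfhx4 probe set gave -0.42. The other Zeb1 probe sets gave -0.28 (1446127_at), -0.03 (1443005_at) and -0.23 (1420243_at). Single Prrx1 probe sets again went apart, from 0.30 by the brightest to -1.07 by 1425526_a_at. Across 5240 genes with at least 2 probe sets above the filter, the median range of the ET-1 difference within a gene was 0.19 in FAK-/- cells and 0.43 in FAK+/+ cells. Prrx1 had a range of 1.13 in FAK-/- and 1.37 in FAK+/+ cells over its 5 such probe sets. The FAK+/+ comparison uses the array whose Gapdh gap was 3.79, and the part of that gap in these values was not tested.

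**Figure D3:**
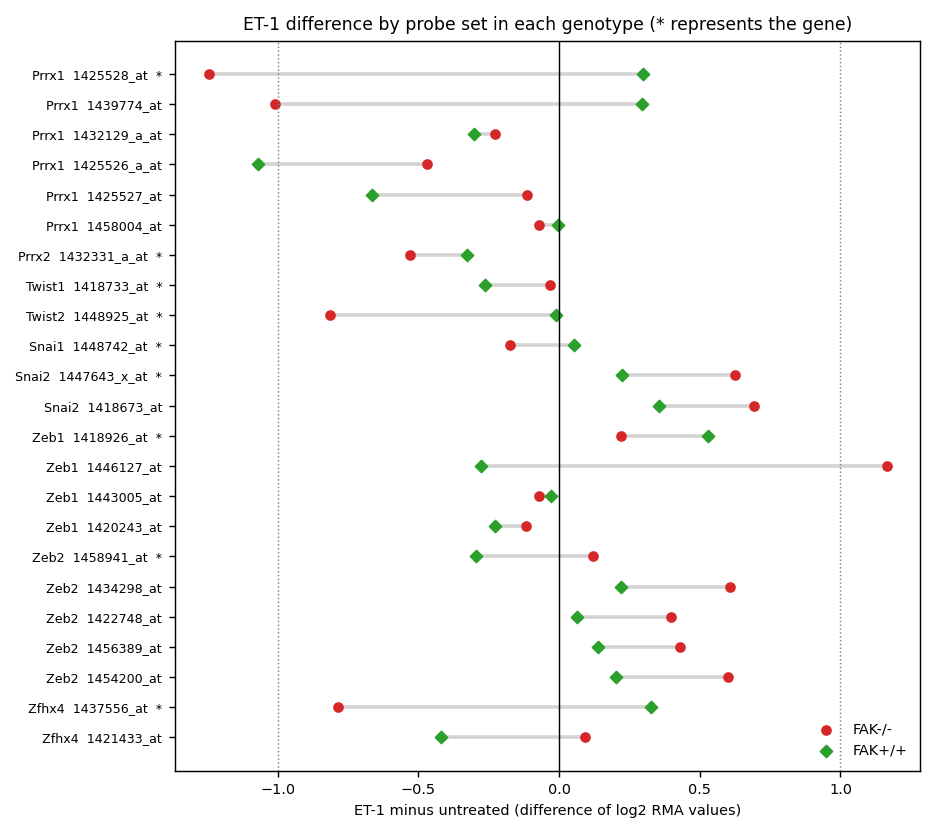
ET-1 minus untreated difference of log2 values (horizontal axis) for each of the 23 probe sets in FAK-/- (circles) and FAK+/+ cells (diamonds), with dotted lines at 2-fold. In FAK-/- cells Prrx1, Prrx2 and Twist2 lie left of 0 and Snai2 and Zeb2 right of it, and the Prrx1 probe sets part between genotypes in both directions.

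An additive model of genotype and treatment, fitted with limma over 12290 genes, gave the ET-1 difference averaged over genotypes. It called 0.0% of genes at an adjusted p under 0.05, the smallest adjusted p being 0.78. Before adjustment 643 of the 12290 genes, or 5.23%, were under 0.05. Among the 8 genes tested, Prrx2 differed by -0.43 ± 0.11 (SE, 4 arrays, limma adjusted p = 0.78) and was lower after ET-1 in both genotypes. Both FAK-/- readings of Prrx2 are dim, which makes its difference in those cells uncertain. Snai2 differed by 0.42 ± 0.18 and Zeb1 by 0.37 ± 0.18, both higher after ET-1 in both genotypes by representative, and Prrx1 differed by -0.47 ± 0.41. The other Zeb1 probe sets were lower after ET-1 in FAK+/+ cells. The adjusted p of all 8 by limma lay between 0.78 and 0.895, so none passed. The model has 1 residual degree of freedom, the genotype by treatment term, and cannot show an absence of ET-1 differences.

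The difference between the ET-1 differences (FAK-/- minus FAK+/+) was -1.54 for Prrx1, -1.12 for Zfhx4 and -0.80 for Twist2 by representative, and 0.40 for Snai2 and 0.41 for Zeb2. It was not tested, since no replicate array exists. For Prrx1 the probe sets ran from -1.54 to 0.60, and for Zfhx4 the second probe set gave 0.51.

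Genes that work with these factors were read from lists, with the limma genotype term averaged over treatments. Each gene was read by its representative probe set, and averaging a gene's probe sets can change the size. Over all 12290 genes, 7.05% were called lower and 6.6% higher in FAK-/- cells at an adjusted p under 0.05. A listed gene that was dim on both arrays of its lower group entered the test only through the group where it was high, and such genes are named beside each count. Among 12 bHLH dimer partners, relatives and Id inhibitors, 1 fell and 2 rose in FAK-/- cells. Tcf4 (E2-2), an E protein that pairs with Twist proteins, fell by 1.17 ± 0.14 (SE, 4 arrays; limma adjusted p = 0.0172). It read 10.82 in FAK-/- and 12.00 in FAK+/+ cells after ET-1, and 10.33 in FAK-/- and 11.48 in FAK+/+ cells untreated. The mean over the 6 Tcf4 probe sets was -0.49 after ET-1 and -0.96 untreated. The E proteins Tcf3 (0.12 ± 0.37) and Tcf12 (-0.25 ± 0.13) did not pass.

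The 2 that rose are mesenchymal bHLH factors. Tcf21, known from epicardial and visceral mesenchyme, rose by 4.28 ± 0.54 (limma adjusted p = 0.0196), with 12.72 in FAK-/- and 7.38 in FAK+/+ cells after ET-1 and 11.99 in FAK-/- and 8.77 in FAK+/+ cells untreated. It was dim on both FAK+/+ arrays and entered through its FAK-/- values. Hand2, a factor of heart and limb mesenchyme, rose by 3.58 ± 0.34 (limma adjusted p = 0.0111). Averaging a gene's probe sets gave smaller differences, 2.79 after ET-1 and 1.66 untreated for Tcf21, and 1.52 and 1.11 for Hand2. All mesothelial markers except Krt19 were also higher in FAK-/- cells in both states, and their part in this was not tested.

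Id proteins hold E proteins in inactive dimers. Id1 read 12.34 in FAK-/- and 8.53 in FAK+/+ cells after ET-1, but 10.99 in FAK-/- and 10.07 in FAK+/+ cells untreated. Id3 read 13.04 in FAK-/- and 9.99 in FAK+/+ cells after ET-1, and 11.65 and 11.35 untreated. The genotype difference was 3.80 after ET-1 and 0.92 untreated for Id1, and 3.04 and 0.31 for Id3, so both were further apart after ET-1. Averaged over treatments, Id1 differed by 2.36 ± 0.73, Id2 by 1.82 ± 0.51 and Id3 by 1.67 ± 0.70, and none passed by limma (adjusted p of 0.127, 0.107 and 0.214).

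Of 31 other EMT and mesenchyme factors, 19 were tested, 5 fell and 1 rose. Shox2, a limb homeobox gene, fell by 4.02 ± 0.20 (limma adjusted p = 0.00568), with 8.31 and 8.88 in FAK-/- cells after ET-1 and untreated, against 12.66 and 12.57 in FAK+/+ cells. Averaging the Shox2 probe sets gave -2.52 after ET-1 and -2.64 untreated. Osr1, a zinc-finger factor of lateral mesoderm, fell by 2.36 ± 0.11 (limma adjusted p = 0.00556). Zfhx3, the relative of Zfhx4, fell by 0.91 ± 0.16 (limma adjusted p = 0.0378). Foxc2 and Pax3 also fell, by 0.84 ± 0.09 and 0.57 ± 0.10, and the nuclear factor Nfib rose by 0.91 ± 0.15. Snai3, the remaining Snail gene, differed by 0.06 ± 0.09 and did not pass. Of the 5 that fell, 3 (Shox2, Osr1 and Foxc2) were dim on both FAK-/- arrays and entered through their FAK+/+ values. Without the level filter 3 genes of this list were called lower. The direction was not uniform, and 13 of 19 did not pass.

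Corepressors and turnover factors of Snail and Zeb proteins did not pass in either direction. Of 20 tested, limma called 0. The largest differences were 0.47 ± 0.18 for the chromatin remodeller Smarca4 and 0.46 ± 0.24 for Gsk3b, a kinase that marks Snail for degradation. Next were 0.43 ± 0.16 for the ubiquitin ligase subunit Btrc and 0.22 for the corepressor Sin3a. With probe sets averaged, Gsk3b differed by 0.17 after ET-1 and -0.27 untreated, and Btrc by 0.15 and 0.01. Smarca4 then differed by 0.75 and 0.33, and Sin3a by 0.51 and 0.04. Among 27 upstream inducers tested, 3 fell and 4 rose. The fallen were Ets1 (-1.85 ± 0.18), the chromatin protein Hmga2 (-1.58 ± 0.14) and Notch1, and the risen were Wnt5a (1.38 ± 0.17), the Notch ligand Jag1 (1.34 ± 0.12), Bmp4 and Tgfbr1. Averaging probe sets gave -0.95 after ET-1 and -1.05 untreated for Ets1, and -1.25 and -1.62 for Hmga2. It gave 0.57 and 0.68 for Wnt5a, 0.88 and 0.90 for Jag1, and 0.39 and 0.36 for Tgfbr1. By representative and averaged over treatments, Tgfb1, Smad3 and Ctnnb1 differed by 0.03 or less in size. Probe set means were 0.73 after ET-1 and -0.08 untreated for Ctnnb1, and 0.02 and -0.24 for Tgfb1. For Smad3 they were 0.03 and -0.02.

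Of 26 epithelial genes that Snail and Zeb factors are known to repress, 16 passed the filter, 7 rose and 0 fell in FAK-/- cells. Krt18 rose by 4.32 ± 0.66 and desmoplakin (Dsp) rose by 2.13 ± 0.17, and the epithelial splicing regulators Esrp1 (1.30 ± 0.11) and Esrp2 (0.91 ± 0.12) rose with them. Of the 7, 2 (Dsp and Esrp1) were dim on both FAK+/+ arrays and entered through their FAK-/- values. Krt8 (1.11 ± 0.17), Cgn and Patj were the other 3, and averaging each gene's probe sets left 4 genes of the list called higher. The best known target was not among them. Cdh1 read 5.79 in FAK-/- and 5.74 in FAK+/+ cells after ET-1, and 5.81 and 5.95 untreated, far below the filter on every array. Ocln, Cldn1, Cldn7, Ovol1, Ovol2 and Tjp3 were also dim on all arrays, and Epcam (-0.33 ± 0.17) and Grhl2 (-0.14 ± 0.12) did not pass. Krt8 and Krt18 are also made by mesothelial cells, and the part of the mesothelial markers in these values was not tested. Earlier results of these data were known when the epithelial list was drawn up, so its count is not independent evidence of a direction.

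Of 27 mesenchymal genes that rise in EMT, 25 were tested, 14 fell and 1 rose in FAK-/- cells. Postn (periostin), a matrix protein, fell by 4.98 ± 0.95, the PDGF receptor Pdgfrb fell by 3.99 ± 0.22, S100a4 fell by 2.83 ± 0.33 and Tnc (tenascin C) fell by 2.48 ± 0.22. Vim, the intermediate filament vimentin, fell by 0.59 ± 0.08 (limma adjusted p = 0.0252) and read 14.16 to 14.91 on the 4 arrays. Of the 14, 1 (Mmp3) was dim on both FAK-/- arrays and entered through its FAK+/+ values. Itgb3 was the 1 that rose. N-cadherin (Cdh2, 0.30 ± 0.16), fibronectin (Fn1, -0.01 ± 0.08) and Col3a1 (0.02 ± 0.11) did not pass, and each was far above the filter in all groups. Averaging each gene's probe sets gave 0.37 after ET-1 and -0.34 untreated for Fn1, and -0.31 and 0.32 for Col3a1. The medians of the list were -1.09 after ET-1 and -0.87 untreated, against -0.03 and 0.02 over all genes. Those of the other lists were 0.88 and -0.04 for dimer partners, -0.06 and -0.15 for other EMT and mesenchyme factors, -0.13 and 0.07 for corepressors, 0.04 and 0.03 for epithelial genes and -0.04 and -0.13 for inducers. Several genes of this list were known to be lower in FAK-/- cells when it was drawn up, so its count is not independent evidence of a direction.

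**Figure D4:**
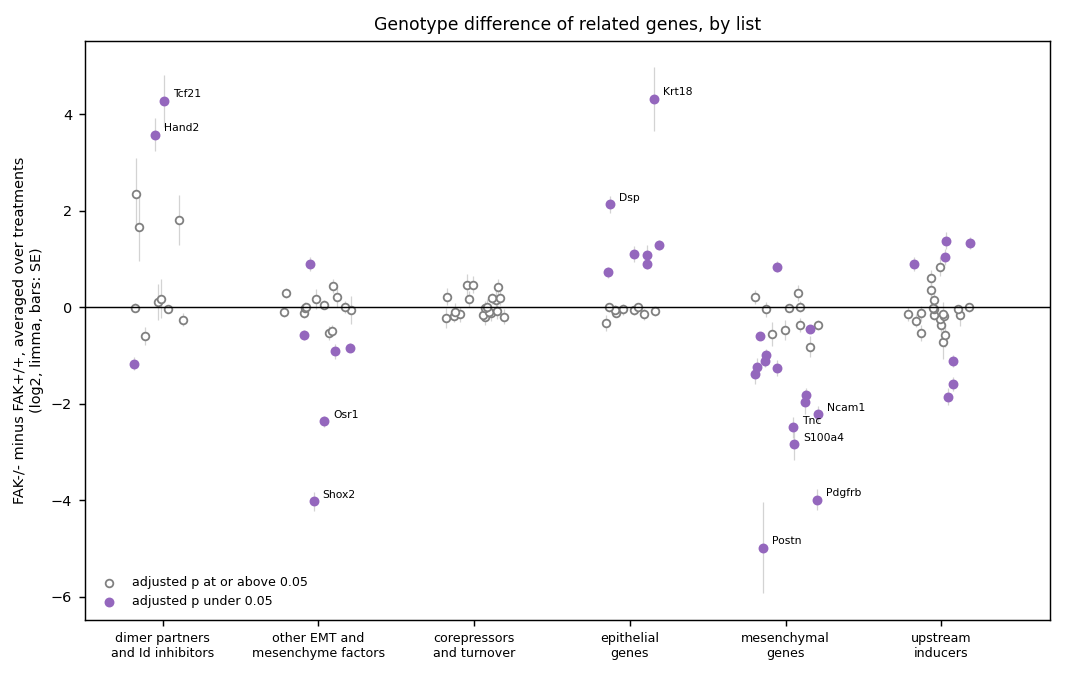
Genotype difference averaged over treatments (log2, limma, bars show SE, 4 arrays) for tested genes of 6 lists. Filled points have an adjusted p under 0.05; called genes with a difference of 4-fold or more are named. Called mesenchymal genes lie below 0 except Itgb3, called epithelial genes lie above 0, and 0 of 20 corepressors and turnover factors were called.

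The genes whose pattern over the 4 arrays came closest to a listed factor were found by the largest absolute gap between the 4 centred log2 values. Closest to Prrx1 were the smooth muscle actin Actg2 (gap 0.16), Grb10 (0.235) and Ccn3 (0.25). Twist2 had Emx2 (0.03), Eya1 (0.10) and Oaf (0.14), Snai2 had the PDGF receptor Pdgfra (0.09), Dse (0.11) and Ccdc88a (0.12), and Zfhx4 had Aspn (0.57), Cxcl5 (0.57) and Fgf7 (0.61). Pdgfra, like Snai2, was lower in FAK-/- cells (10.98 after ET-1 and 10.26 untreated, against 12.12 and 11.89 in FAK+/+ cells) and higher after ET-1 in both genotypes. Zeb1 and Zeb2, with small differences by representative, had Suco (0.03) and Sgo2a (0.02) as closest genes. The Zeb2 match rests on its representative, while its other probe sets were lower in FAK-/- cells without overlap. Likeness over 4 arrays is a description with no test.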

How the data were processed

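RNA of 4 samples of mouse embryonic fibroblasts was amplified and biotin-labelled in 2 cycles from 100 ng of total RNA, per the labels' protocols, a labelling that starts at the 3' end of transcripts. The authors deposited log2 values per probe set, made with RMA per the submitters' processing notes; the version is not given in the sources used here. Values run from 5.00 to 15.24 over 45101 probe sets, and whether a constant was added, which would shrink differences at the dim end, was not tested. The table holds 0 columns of other samples. The platform's annotation paired 34958 probe sets with 1 gene, 932 with several and left 9211 unnamed here; 34754 of the first matched the RefSeq table (GRCm38.p6) by Entrez identifier.

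Values were used as deposited. Differences between arrays have no test, and the fold threshold was 2. In R 4.3.3, limma 3.58.1 (lmFit, then eBayes with its trend option) fitted genotype plus treatment to the 4 arrays, with Benjamini-Hochberg adjustment over 12290 genes, a threshold of 0.05, 1 residual degree of freedom and 2.996 prior degrees. The number of arrays limits the precision, and p-values compare a difference with the genotype by treatment term. The fit was tested on simulated data. Figures and counts used Python 3.11.15, pandas 2.3.3, numpy 2.4.6 and matplotlib 3.10.9.

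The genes, lists and tests were chosen with earlier results of these data known. Named from each list were up to 4 tested genes with the largest genotype difference and a set fixed by name; further list members that are named were picked after their values were seen. The 3 closest patterns were sought for 6 of the genes, passing over predicted and clone names.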

Additional observations from a re-analysis of the deposited data

Results flagged for a closer look

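By representative probe set, Prrx1, Zfhx4, Zeb2 and Snai1 had ET-1 differences of opposite sign in the genotypes. The share of all genes with opposite signs was not counted, and small differences can take either sign. With 1 array per group, the opposite signs were not tested. The FAK-/- minus FAK+/+ difference of ET-1 differences was -1.54 for Prrx1, where the FAK-/- value was -1.25 and the FAK+/+ value 0.30. It was -1.12 for Zfhx4 (-0.79 in FAK-/- and 0.33 in FAK+/+ cells), 0.41 for Zeb2 (0.12 and -0.29) and -0.23 for the dim Snai1 (-0.18 and 0.05). For Prrx1 a second bright probe set gave -1.31, while the other 4 ran from -0.07 to 0.60. All 5 Zeb2 probe sets gave 0.29 to 0.41, but only the representative had opposite signs: the other 4 were higher after ET-1 in both genotypes, by 0.40 to 0.61 in FAK-/- and 0.06 to 0.22 in FAK+/+ cells. Each of these values uses the ET-1-treated FAK+/+ array, whose Gapdh gap of 3.79 stands apart; the part of that gap was not tested.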

How the results depend on the processing

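No paired analysis was possible because each group has 1 array and the labels give no replicate numbers. Leaving out an array leaves no residual degree of freedom. The counts of the 9 genes at least 2-fold lower in FAK-/- cells were 5 in both treatment states with the mean or median of probe sets. They were also 5 in both states with array medians subtracted and after quantile normalisation. At 4-fold they were 4 in both states, and at 1.5-fold they were 6 after ET-1 and 5 untreated. The shares of all genes with such genotype differences at 4-fold and 1.5-fold were not counted, so these counts only describe the list. The ET-1 count in FAK-/- cells (1 lower, 0 higher) was 0 lower with the mean of probe sets, with their median and at 4-fold, and 3 lower and 1 higher at 1.5-fold. The ET-1 difference was at least 2-fold lower in FAK-/- than in FAK+/+ cells for 2 genes (Prrx1 and Zfhx4). That count was 0 with the mean, with the median and at 4-fold, and 3 at 1.5-fold. The share of all genes was not counted for this comparison. The median of the Prrx1 probe sets turned its value to 0.22. The cause was not tested. Over all lists limma called 19 to 24 genes lower (23 as reported) and 11 to 19 higher (15 as reported). With array medians subtracted 4 dimer partners and Id inhibitors were called higher instead of 2. For ET-1 it called 0 genes under each of the 5 other settings, and 561 to 955 genes were under 0.05 before adjustment (643, or 5.23%, as reported). More genes were tested without the level filter. Dim signal limits what can be said of Snai1 and Cdh1, of Prrx2 and Zfhx4 in FAK-/- cells and of Prrx1 in FAK-/- cells after ET-1. The Twist2 value in FAK-/- cells after ET-1 lies only just above the filter.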
